A study of Homo sapiens with 6 samples.

Results

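S100 genes encode small calcium-binding proteins, and 10 of them were described here across the MCF10A-SNAI1 and MCF10A lines: S100A2, S100A4, S100A6, S100A7, S100A8, S100A9, S100A10, S100A11, S100A14 and S100A16. They were chosen by name, each was read from its brightest probe set that carries no other gene symbol, and all 10 were found. The arrays measured 21 S100 genes and 18417 genes in all. Total RNA of 3 MCF10A-SNAI1 and 3 MCF10A samples, labelled as biological replicates, was hybridised to Affymetrix HuGene arrays. MCF10A is a human mammary epithelial line, immortalized but not tumorigenic. MCF10A-SNAI1 cells carry a plasmid for SNAI1-Flag driven by a CMV enhancer and chicken beta-actin promoter, were selected with puromycin and came from another laboratory. The control was the untransfected line, and both were grown in mammary epithelial medium with cholera toxin. The sources used here do not state whether MCF10A-SNAI1 is 1 clone, and the plasmid, the selection and the history of the line cannot be told apart from SNAI1.

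S100 proteins are built on a pair of EF-hands, the helix-loop-helix folds that hold calcium, and most work as dimers. Calcium opens a hydrophobic face through which they bind partners such as annexins, myosins and other cytoskeletal proteins. Several are also released and act on cell surface receptors, and many are made in skin and other epithelia. Most of their genes lie beside those of the cornified envelope. S100A4, also called fibroblast-specific protein, is widely used as a marker of epithelial-mesenchymal transition, the change of cell state that SNAI1, a zinc finger repressor of E-cadherin, can start.

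The labels were checked first. SNAI1 measured 10.50, 10.53 and 10.50 in MCF10A-SNAI1 cells, against 5.80, 5.73 and 5.77 in MCF10A cells, on the deposited log2 scale. CDH1, which encodes E-cadherin, averaged 5.07 ± 0.13 in MCF10A-SNAI1 cells and 9.05 ± 0.070 in MCF10A cells (SD, n = 3 each). Array medians lay between 6.04 and 6.09. Of 6 measured mammary epithelial markers, 4 were called lower in MCF10A-SNAI1 cells, and of 8 mesenchymal markers, 4 were called higher. The keratin KRT8 went against its list (log2 fold change 0.95, limma adjusted p = 6.22e-05), and the mesenchymal filament VIM did not pass (log2 fold change 0.06, limma adjusted p = 0.601). PDGFRB and COL1A2 of the mesenchymal list did not pass either (log2 fold changes 0.40 and 0.25, limma adjusted p = 0.0113 and 0.0489). The mean of the epithelial list was 8.79 to 8.90 per array in MCF10A-SNAI1 cells, against 11.22 to 11.24 in MCF10A cells. That of the mesenchymal list was 8.76 to 8.82 in MCF10A-SNAI1 cells, against 7.63 to 7.78 in MCF10A cells. The part of these shifts in the S100 values was not tested, and in such bulk RNA fewer cells of a type and less RNA per cell cannot be told apart. P-values from limma set the difference between the lines against the spread of arrays within each line. They do not measure the spread between separately made lines.

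No S100 gene of the 10 was called higher in MCF10A-SNAI1 cells, and 3 were called lower: S100A14, S100A2 and S100A8. A call needed an adjusted p below 0.01 in limma, adjusted over all probe sets by Benjamini-Hochberg, and a change of over 2-fold. Of all genes tested, 3.10% were called higher and 2.54% lower. S100A6 was higher, and S100A9 and S100A16 lower, at an adjusted p below 0.01 but less than 2-fold, a range that held 8.95% of all genes on the higher side and 8.64% on the lower. S100A4, S100A7, S100A10 and S100A11 passed neither threshold. The median log2 fold change, MCF10A-SNAI1 minus MCF10A, was -0.43 over the 10 genes and -0.01 over all genes. The lines did not overlap for 7 of the 10: all MCF10A-SNAI1 arrays lay above all MCF10A arrays for 2, against 23.7% of all genes, and below them for 5, against 24.6% of all genes. An exact two-sided permutation test gives such a gene p = 0.1, the smallest that 3 arrays against 3 allow. No member averaged within the lowest 20% of all values, up to 3.94 on the log2 scale, in either line. That range does not mark detection, since no detection calls were given. The leukocyte marker FCN1 averaged 6.31 in MCF10A-SNAI1 cells and 6.32 in MCF10A cells. S100A4, S100A7 and S100A8 averaged less than this in both lines, and S100A9 and S100A14 in MCF10A-SNAI1 cells. Probe sets differ in background, and whether these values exceed it was not tested. All 10 are plotted array by array.

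**Figure D1:**
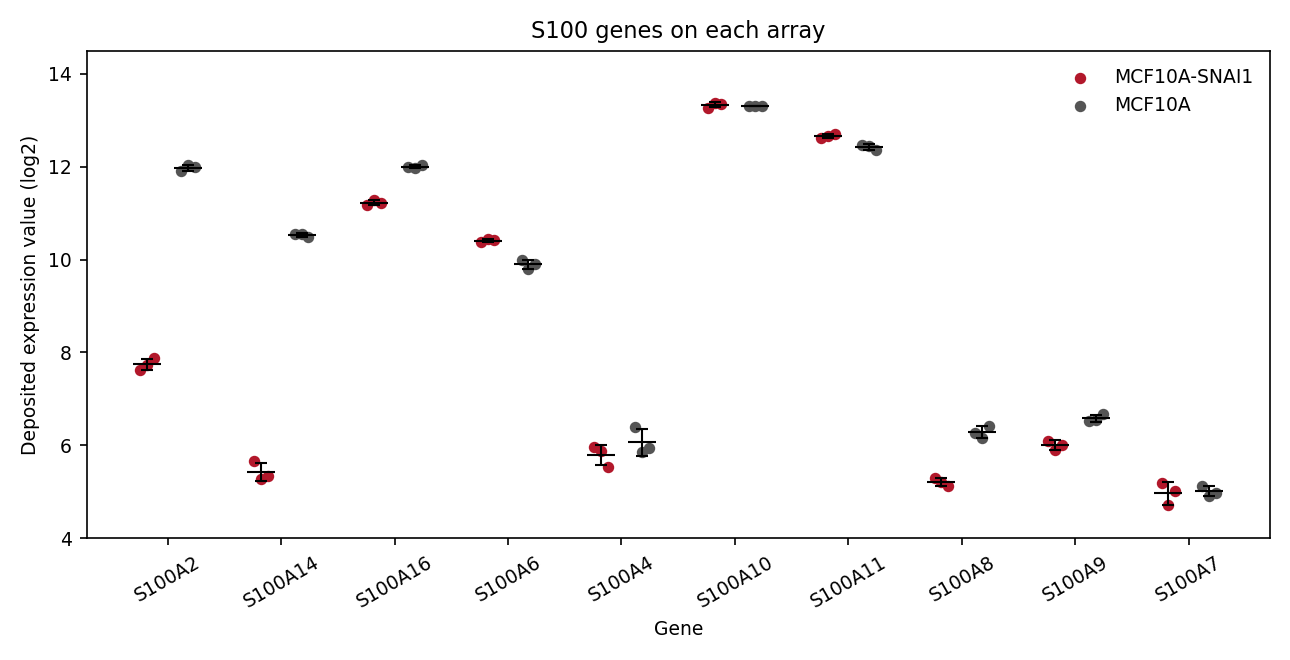
The log2 value (vertical axis) of each of 10 S100 genes on each array, with MCF10A-SNAI1 left of MCF10A within a gene, and bars for the mean and SD of 3 arrays. S100A14 and S100A2 show the wide gaps between the lines, while the arrays of S100A4, S100A7 and S100A10 overlap. Heights of different genes come from different probe sets and are not set against each other.

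The largest differences were in S100A14 and S100A2. S100A14, a member of epithelial tissues described as a ligand of the receptor RAGE, measured 5.65, 5.28 and 5.34 in MCF10A-SNAI1 cells, against 10.56, 10.55 and 10.49 in MCF10A cells. The arrays of each line lay close together and far from those of the other. S100A14 was 34.4-fold lower in MCF10A-SNAI1 cells (log2 fold change -5.11 with a standard error of 0.10, 95% interval -5.35 to -4.86, limma adjusted p = 3.66e-07). Ordered by log2 fold change, it held place 9 among the falls of 18417 genes. S100A14 averaged 5.43 in MCF10A-SNAI1 cells, below the array medians of 6.04 to 6.09. The fold change and its interval make no allowance for background in such low values, so they do not bound the change in transcript. The 250 bases before the annotated start of S100A14 (RefSeq, GRCh38.p14, chr1:153616326-153616575, minus strand) are shown because this gene fell furthest of the 10. Capitals mark CAGGTG, an E-box of the kind that SNAI1 is known to bind.
S100A14: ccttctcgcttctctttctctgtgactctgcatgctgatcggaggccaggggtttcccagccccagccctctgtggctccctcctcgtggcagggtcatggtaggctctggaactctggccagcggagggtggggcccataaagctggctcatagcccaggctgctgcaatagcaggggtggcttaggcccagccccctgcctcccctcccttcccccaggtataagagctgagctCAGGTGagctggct
Its first base lies 14 bases before the start, and the window holds no other E-box of this form.

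S100A2, which is made in the basal cells of stratified and mammary epithelium and can bind the tumor suppressor p53, measured 7.62, 7.73 and 7.87 in MCF10A-SNAI1 cells, against 11.90, 12.04 and 11.99 in MCF10A cells. No array of either line came near the other line. The difference was 18.9-fold, lower in MCF10A-SNAI1 cells (log2 fold change -4.24 with a standard error of 0.083, 95% interval -4.43 to -4.04, limma adjusted p = 3.10e-07), place 20 among the falls. RefSeq gives S100A2 starts that yield 2 windows. The first (GRCh38.p14, chr1:153565845-153566094, minus strand) is shown because it holds the AP-1 motif TGANTCA, here in capitals, and no E-box.
S100A2: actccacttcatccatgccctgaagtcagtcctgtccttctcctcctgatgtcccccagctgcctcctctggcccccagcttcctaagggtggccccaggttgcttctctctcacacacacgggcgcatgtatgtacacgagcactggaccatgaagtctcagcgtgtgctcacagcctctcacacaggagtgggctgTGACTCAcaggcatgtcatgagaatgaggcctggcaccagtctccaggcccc
The motif begins 52 bases before that start. It was searched on both strands, which read alike apart from the central base. It occurs in 6.57% of 35116 such windows and in at least 1 window of 8.06% of 27305 annotated genes. The second S100A2 window holds an E-box and no AP-1 motif. Of the 10 genes, S100A2 alone held the AP-1 motif, which also occurs in a window of S100A3, S100A5 and S100A12. S100A3 was lower by less than 2-fold (log2 fold change -0.80, limma adjusted p = 5.61e-04). S100A5 and S100A12 had log2 fold changes of -0.02 and -0.06 and did not pass the test. Whether the motif plays a part in these changes was not tested.

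S100A16, a widely expressed neighbour of S100A14, measured 11.18, 11.28 and 11.22 in MCF10A-SNAI1 cells, against 11.998, 11.97 and 12.03 in MCF10A cells. All MCF10A-SNAI1 arrays lay below all MCF10A arrays. The difference was 1.71-fold, lower in MCF10A-SNAI1 cells (log2 fold change -0.77 with a standard error of 0.060, 95% interval -0.92 to -0.63, limma adjusted p = 1.24e-04). It passed the test on p but stayed under 2-fold.

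S100A8 and S100A9 form calprotectin, the zinc- and calcium-binding heterodimer that is abundant in neutrophils and is also made by stressed keratinocytes. S100A8 measured 5.29, 5.22 and 5.12 in MCF10A-SNAI1 cells, against 6.27, 6.16 and 6.41 in MCF10A cells. The lines did not overlap, and the difference was 2.10-fold, lower in MCF10A-SNAI1 cells (log2 fold change -1.07 with a standard error of 0.086, limma adjusted p = 1.43e-04). Its 95% interval, -1.27 to -0.87, reached across the 2-fold threshold. Over the alternative settings the log2 fold change lay between -1.13, without MCF10A array 2, and -1.01, without MCF10A array 3. S100A9 measured 6.10, 5.89 and 6.01 in MCF10A-SNAI1 cells, against 6.52, 6.54 and 6.67 in MCF10A cells. It lay lower on all MCF10A-SNAI1 arrays too, by 1.49-fold (log2 fold change -0.58 with a standard error of 0.079, 95% interval -0.76 to -0.39, limma adjusted p = 0.0018). With the methods' t-test, adjusted in the same way, the p for S100A9 was 0.0141.

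Because calprotectin is a leukocyte product, leukocyte markers were read beside it. Of 11 measured, none was called. CD68, a lysosomal protein of macrophages that other cells also make, was the only one with an adjusted p below 0.01 (9.13 in MCF10A-SNAI1 cells and 8.15 in MCF10A cells, log2 fold change 0.99, limma adjusted p = 8.86e-05), and it was called, at 1.01 or 1.02, without MCF10A-SNAI1 array 2, MCF10A array 2 or MCF10A array 3. PTPRC, the pan-leukocyte antigen CD45, and CD163, LYZ and FCGR3A were in the lowest 20% of all values in both lines. The rest of the list lay above that range, from CD3E (4.44 in MCF10A-SNAI1 cells and 4.60 in MCF10A cells) up to CD68. FCN1, for example, averaged 6.31 in MCF10A-SNAI1 cells and 6.32 in MCF10A cells. The mean of the list per array was 4.87 to 5.03 in MCF10A-SNAI1 cells and 4.88 to 4.91 in MCF10A cells.

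S100A7, or psoriasin, an antimicrobial protein of inflamed skin, measured 5.18, 4.71 and 5.004 in MCF10A-SNAI1 cells, against 5.13, 4.92 and 4.98 in MCF10A cells. The lines overlapped (log2 fold change -0.04 with a standard error of 0.13, 95% interval -0.35 to 0.26, limma adjusted p = 0.877). S100A7 and S100A7A are near-identical copies, so probes can share signal between them.

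S100A4 and S100A6 are both linked to motility, and neither was called. S100A4, which binds the nonmuscle myosin MYH9, measured 5.95, 5.88 and 5.53 in MCF10A-SNAI1 cells, against 6.40, 5.86 and 5.94 in MCF10A cells. The arrays of the lines overlapped, and MCF10A array 1 stood above the other 5. The log2 fold change was -0.28 (standard error 0.17, 95% interval -0.68 to 0.12, limma adjusted p = 0.330), and the exact permutation p was 0.5. Taking the values as deposited, the interval runs from a fall of 0.68 to a rise of 0.12 on the log2 scale. S100A4 averaged 5.79 in MCF10A-SNAI1 cells and 6.07 in MCF10A cells, against array medians between 6.04 and 6.09. The interval makes no allowance for background in such low values, so it does not bound the change in transcript. S100A6, or calcyclin, which is linked to proliferation and the cytoskeleton, measured 10.37, 10.43 and 10.42 in MCF10A-SNAI1 cells, against 9.98, 9.80 and 9.91 in MCF10A cells. All MCF10A-SNAI1 arrays lay higher, by 1.43-fold (log2 fold change 0.51 with a standard error of 0.068, 95% interval 0.35 to 0.67, limma adjusted p = 0.0015). Of the 10, it was the only gene with a higher value at an adjusted p below 0.01.

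S100A10 and S100A11 are among the S100 proteins that bind annexins. S100A10, or p11, forms a tetramer with annexin A2 that holds plasminogen and tissue plasminogen activator at the cell surface. It measured 13.27, 13.38 and 13.36 in MCF10A-SNAI1 cells, against 13.32, 13.31 and 13.32 in MCF10A cells. The 3 MCF10A arrays fell within the range of the MCF10A-SNAI1 arrays, and the log2 fold change was 0.02 (standard error 0.059, 95% interval -0.12 to 0.16, limma adjusted p = 0.858). S100A11, which binds annexin A1, measured 12.61, 12.66 and 12.70 in MCF10A-SNAI1 cells, against 12.47, 12.44 and 12.35 in MCF10A cells. It lay higher on every MCF10A-SNAI1 array, but the difference of 0.23 (standard error 0.063, 95% interval 0.08 to 0.38) did not pass the threshold (limma adjusted p = 0.0358).

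The other 11 S100 genes on the arrays included no call. S100A3, a protein of the hair cuticle, averaged 8.16 ± 0.095 in MCF10A-SNAI1 cells and 8.96 ± 0.12 in MCF10A cells (SD, n = 3 each; log2 fold change -0.80, limma adjusted p = 5.61e-04). S100A13, which helps release FGF1 from cells, averaged 7.62 ± 0.0042 in MCF10A-SNAI1 cells and 7.19 ± 0.024 in MCF10A cells (SD, n = 3 each; log2 fold change 0.43, limma adjusted p = 0.0012). The remaining 9, S100A1, S100A5, S100A7A, S100A7L2, S100A12, S100B, S100G, S100P and S100Z, had log2 fold changes between -0.06 and 0.29 and adjusted p from 0.188 to 0.961. S100A7A, S100A7L2, which RefSeq lists as a pseudogene, and S100G were in the lowest 20% of values in both lines. The median over the 11 was 0.05.

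**Figure D2:**
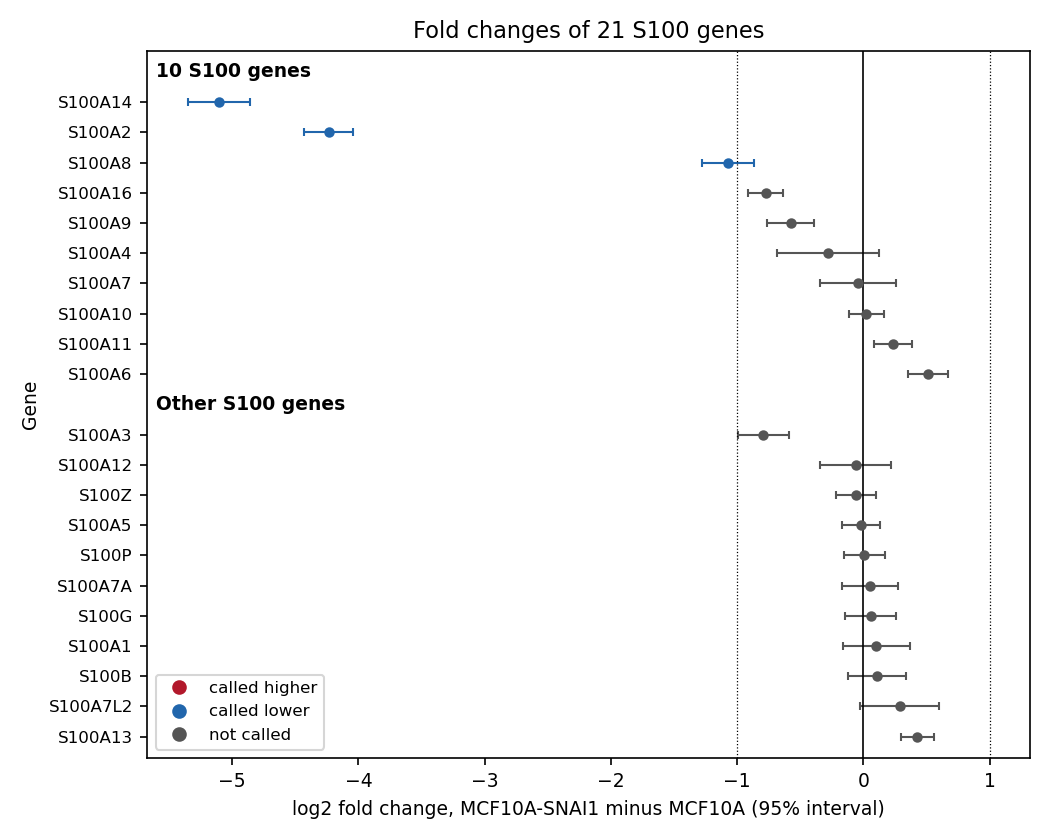
The log2 fold change, MCF10A-SNAI1 minus MCF10A (horizontal axis), of all 21 S100 genes with its 95% interval. S100A14 at -5.11 and S100A2 at -4.24 stand far to the left, S100A8 lies just past -1, and S100A6 at 0.51 and S100A13 at 0.43 lie furthest right.

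Of the 21 S100 genes, 17 lie on chromosome 1, where RefSeq places S100A10 and S100A11 at one end of the epidermal differentiation complex and the others at the far end. Neighbouring S100 genes differed in their changes. In the order S100A4, S100A3, S100A2, S100A16, S100A14, S100A13, S100A1, the log2 fold changes were -0.28, -0.80, -4.24, -0.77, -5.11, 0.43 and 0.10. The 2 genes with the wide falls thus lay on either side of S100A16, which fell by 0.77 on the log2 scale. Between the outermost S100 genes, 43 other genes were measured of 77, among them genes of the cornified envelope. None was called higher and 2 were called lower. SPRR1B, a small proline-rich envelope precursor, averaged 5.18 ± 0.35 in MCF10A-SNAI1 cells and 6.75 ± 0.050 in MCF10A cells (SD, n = 3 each; log2 fold change -1.57, limma adjusted p = 4.75e-04). SPRR2A, of the same family, averaged 3.96 ± 0.23 in MCF10A-SNAI1 cells and 5.13 ± 0.15 in MCF10A cells (SD, n = 3 each; log2 fold change -1.17, limma adjusted p = 7.55e-04). Neither passed with the methods' t-test (adjusted p = 0.0129 and 0.0154). LCE3D, a late envelope gene, was lower by less than 2-fold (log2 fold change -0.82, limma adjusted p = 0.0024), and IVL, which encodes involucrin, had an adjusted p of 0.0177 from limma. The median of the 43 was -0.08, with a range of -1.57 to 0.25.

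**Figure D3:**
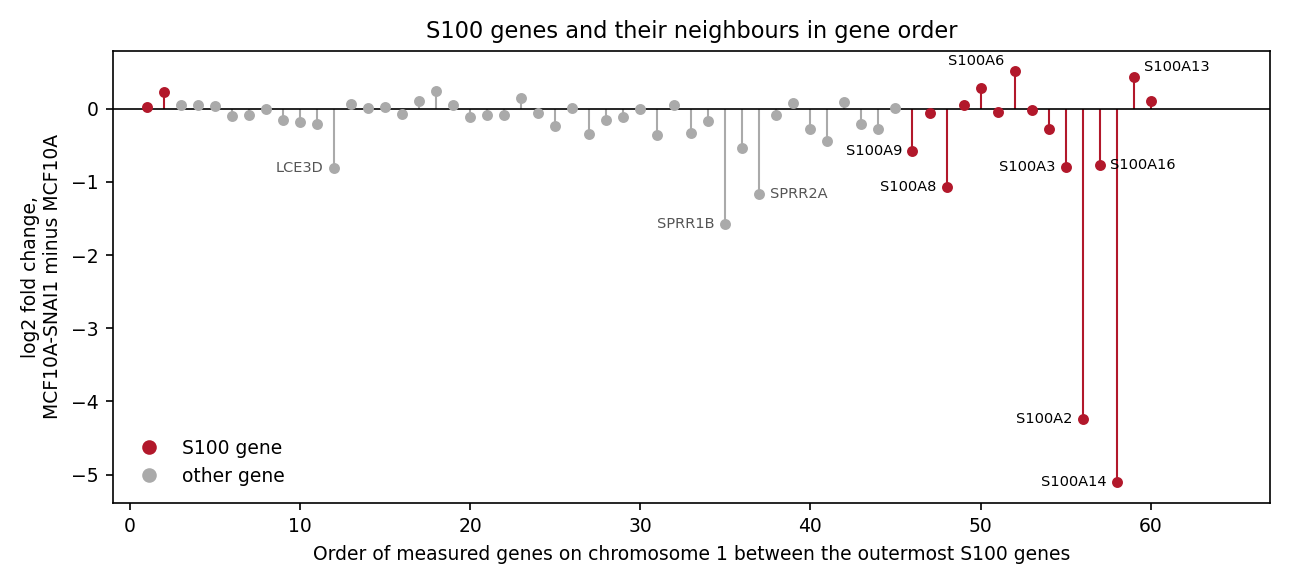
The log2 fold change, MCF10A-SNAI1 minus MCF10A (vertical axis), of the 60 measured genes from S100A10 to S100A1, in their order along chromosome 1 (horizontal axis, position in the order and not distance). S100 genes are red and other genes grey. S100A2 at -4.24 and S100A14 at -5.11 reach far below the other genes, while the S100 genes closest to them, from S100A4 to S100A1, lie between -0.80 and 0.43.

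The windows before the starts were searched for the E-box in both orientations (CAGGTG or CACCTG, which are reverse complements of each other). At least 1 window held it in 7 of the 10 genes, over 14 windows, in 4 of 9 other S100 genes with a window, and in 20.64% of 27305 annotated genes (17.49% of all windows). The 7 were S100A2, S100A4, S100A7, S100A8, S100A9, S100A14 and S100A16, and S100A6, S100A10 and S100A11 had none. The stretches around the motif, in capitals, are shown for the genes with an adjusted p below 0.01 and for S100A4 and S100A7.
S100A14: aagagctgagctCAGGTGagctggctcctc
S100A2, second window: cagtgtacccatCACCTGgcacctctgcag
S100A8: gattgccacattCACCTGgttgagaaacca
S100A9: taccacactgctCACCTGtgaagcaatctt
S100A16, first: atcccagtgaccCAGGTGagaaaggcaggt
S100A16, second: aggtgagaaaggCAGGTGatagtccttccc
S100A4: cccacgggtgccCACCTGggaacaggaggc
S100A7, first: cagagaagactcCAGGTGaggtctctgggg
S100A7, second: gtgtgtcccaccCACCTGatgtggggcaag
The first base of the motif lay 14 bases before the start in S100A14, 18 before the second start in S100A2, 92 in S100A9 and 164 in S100A4. In S100A8 a single site lay 9, 124 or 221 bases before its 3 annotated starts. In S100A16 the sites lay 191 and 178 bases before the first of its 2 annotated starts, and the window of the second held none. In S100A7 they lay 202 and 114 bases before the start. S100A4 and S100A7, whose lines overlapped, also held the motif. Both had low values in each line, averaging 5.79 and 4.96 in MCF10A-SNAI1 cells, and 6.07 and 5.01 in MCF10A cells. The 4 other S100 genes with the motif were S100A5, S100A7A, S100P and S100Z. Their log2 fold changes were -0.02, 0.05, 0.01 and -0.06, and none passed the test. They too were low, averaging 5.62, 3.86, 5.68 and 4.68 in MCF10A-SNAI1 cells. S100A3 (log2 fold change -0.80) and S100A13 (0.43), which passed on p, had no E-box in their windows. Whether the motif plays a part in any of the changes was not tested. These matches describe sequence only, and binding was not measured.

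Among binding partners, the annexins went both ways while the partner of S100A10 did not pass. Of 11 measured, 1 was called higher and 1 lower, and their median log2 fold change was 0.02. ANXA6, a large annexin of membranes and endosomes, measured 10.46, 10.47 and 10.40 in MCF10A-SNAI1 cells, against 7.89, 7.83 and 7.79 in MCF10A cells (log2 fold change 2.61 with a standard error of 0.060, limma adjusted p = 5.80e-07). ANXA3 measured 5.65, 6.07 and 6.15 in MCF10A-SNAI1 cells, against 10.68, 10.70 and 10.57 in MCF10A cells (log2 fold change -4.69 with a standard error of 0.13, limma adjusted p = 1.36e-06). Both were well separated between the lines. ANXA2, the partner of S100A10, averaged 12.49 ± 0.052 in MCF10A-SNAI1 cells and 12.42 ± 0.039 in MCF10A cells (SD, n = 3 each; log2 fold change 0.07, limma adjusted p = 0.519). ANXA1, which S100A11 binds, had a log2 fold change of -0.32 and a limma adjusted p of 0.0161.

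Of 8 measured receptors that extracellular S100 proteins are known to use, 2 were called higher and 0 lower, with a median log2 fold change of 0.13. TLR4, which S100A8 and S100A9 can activate, measured 8.93, 9.07 and 9.08 in MCF10A-SNAI1 cells, against 5.54, 5.72 and 5.76 in MCF10A cells (log2 fold change 3.35 with a standard error of 0.082, limma adjusted p = 7.21e-07). MCAM, a surface adhesion molecule described as a receptor of calprotectin, measured 9.76, 9.78 and 9.85 in MCF10A-SNAI1 cells, against 6.60, 7.04 and 6.53 in MCF10A cells (log2 fold change 3.07 with a standard error of 0.13, limma adjusted p = 8.31e-06). TLR4 and MCAM thus lay higher in the line in which S100A8 and S100A9 lay lower, but not all receptors of the list did. BSG, NPTN and CD36 had log2 fold changes of -0.01, 0.14 and 0.08 and did not pass the test. ALCAM, another adhesion molecule of the immunoglobulin family, was higher by less than 2-fold (log2 fold change 0.97, limma adjusted p = 5.96e-05), and EMB, or embigin, was lower (log2 fold change -0.75, limma adjusted p = 8.09e-04). AGER, which encodes RAGE, the receptor named for S100A14 and many other members, averaged 7.17 in MCF10A-SNAI1 cells and 7.05 in MCF10A cells (log2 fold change 0.11, limma adjusted p = 0.357).

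Of 7 measured genes of the plasminogen system that S100A10 serves, PLAU alone was called. PLAU, the urokinase plasminogen activator, measured 6.07, 5.65 and 6.10 in MCF10A-SNAI1 cells, against 10.10, 10.26 and 10.01 in MCF10A cells (log2 fold change -4.18 with a standard error of 0.13, limma adjusted p = 2.15e-06). The protease CTSB (log2 fold change 0.55) and the tissue activator PLAT (0.43) were higher by less than 2-fold, and the inhibitor SERPINE2 (-0.49) was lower, with adjusted p from limma of 6.80e-04, 0.0081 and 0.0010. Of 13 measured intracellular partners, none was called. HLTF, a chromatin remodeller that binds S100A10 with annexin A2, the myosin MYH10, the scaffold AHNAK and the phosphatase PPP5C were higher at an adjusted p below 0.01 in limma, with log2 fold changes of 0.63, 0.56, 0.54 and 0.46. NCL, or nucleolin, was lower (log2 fold change -0.39, limma adjusted p = 0.0071). MYH9, the myosin that S100A4 binds, had a log2 fold change of 0.29 and an adjusted p of 0.0112.

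**Figure D4:**
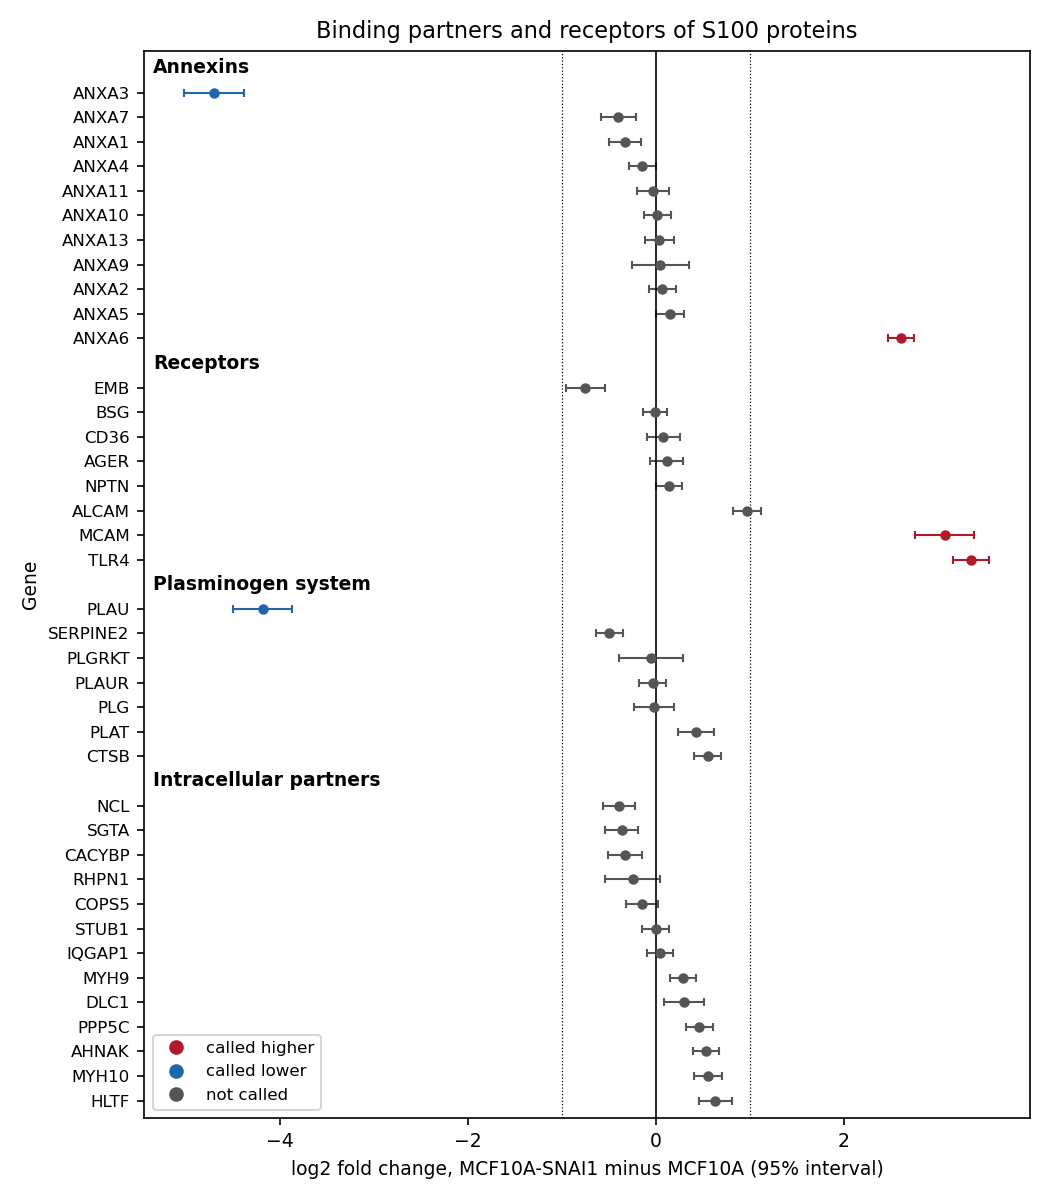
The log2 fold change, MCF10A-SNAI1 minus MCF10A (horizontal axis), of each measured gene in the lists of S100 partners, 1 gene a line, with its 95% interval. TLR4 at 3.35, MCAM at 3.07 and ANXA6 at 2.61 lie furthest right, and ANXA3 at -4.69 and PLAU at -4.18 furthest left, while the 13 intracellular partners lie between -0.39 and 0.63.

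Genes with a profile most like that of S100A14 were sought by the root mean square difference of values over the 6 arrays, each gene centred on its mean. TNS4, a focal adhesion protein, came closest at 0.106 (log2 fold change -4.97), followed by DSP, the desmosomal plakin, at 0.111 (-4.95) and CLCA2, a p53-responsive membrane protein, at 0.136 (-5.22). For S100A2 the nearest were PLAU at 0.167, CDH3, or P-cadherin, at 0.170 (log2 fold change -4.43) and CDH1 at 0.199. With 6 arrays in 2 lines, these profiles share mainly the gap between the lines.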

How the data were processed

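Total RNA of 3 MCF10A-SNAI1 and 3 MCF10A samples was measured on Affymetrix HuGene arrays. The authors deposited 1 table of log2 values for 33297 probe sets. The methods name GC RMA in GeneSpring. The submitters' notes on processing list Expression Console 1.1, GCOS and MAS5. The program that made the table was not given in the sources used here. It holds no detection calls, and the background correction, which low values depend on, was not varied. Values were used as deposited and unfiltered. Limma 3.58.1 in R 4.3.3 fitted MCF10A-SNAI1 minus MCF10A, with empirical Bayes moderation, and p-values were adjusted over all probe sets by Benjamini-Hochberg.

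Of the probe sets, 19460 had exactly 1 symbol, 1754 several and 12083 none, and the brightest of the first kind per gene gave 18417 genes. Of these, 18389 had an entry in RefSeq GRCh38.p14, which was used for names, gene order and promoter windows. Array coordinates are not given because no build is named. Listed genes without such a probe set are not analysed here. The S100 genes, the other lists and the alternatives were chosen with earlier results of these data known. Named genes were all S100 genes, SNAI1, CDH1, up to 4 called genes per direction of each list and of the neighbours, marker genes, and the 3 profiles nearest to the S100 gene with the largest called fall. Other named genes were chosen after their values were seen: ANXA1, ANXA2, ALCAM, EMB, AGER, BSG, NPTN, CD36, MYH9, MYH10, AHNAK, HLTF, PPP5C, NCL, CTSB, PLAT, SERPINE2, LCE3D, IVL, RCN1, EFHD2, CAPN1, CAPNS1 and the profiles nearest to S100A2. Intervals are 95% confidence intervals from limma, with only 3 arrays per line behind them. The fit was tested on simulated data. Alternatives were quantile normalization, centring, a replicate block, the methods' t-test, robust and trended moderation, removal of dim probe sets, leaving out each array, averaging of probe sets and other fold thresholds.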

Additional observations from a re-analysis of the deposited data

How the results depend on the processing

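Over 15 alternative settings, S100A2 and S100A14 were called lower in each, and S100A8 in each that tested it; the filter that removed probe sets below the median left S100A8 out, so 2 S100 genes were called there. No S100 gene of the 10 was called higher in any of these. Without a fold threshold, 1 of the 10 was called higher and 5 lower, and of all 18417 genes 2220 were higher and 2059 lower. At 1.5-fold, chosen after seeing the data, 4 of the 10 were lower and 0 higher, and of all 18417 genes 1382 were higher and 1150 lower. The sign turned only near 0: S100A10 was at -0.0052 after quantile normalization, and S100P at -0.0041 after it and at -0.0039 after centring. Leaving out each array in turn, the log2 fold change of S100A12 ran between -0.135 and 0.066, that of S100A7 between -0.152 and 0.087, S100A5 between -0.050 and 0.016, S100A7A between -0.030 and 0.115 and S100P between -0.037 and 0.042. S100A11 ranged in adjusted p from 0.0084 to 0.1225. CD68 was called, at a log2 fold change of 1.02, without MCF10A-SNAI1 array 2 or MCF10A array 2, and at 1.01 without MCF10A array 3. SPRR1B (-1.57) and SPRR2A (-1.17) were not called by the methods' t-test. With 3 arrays per line, changes of low genes and those near 2-fold are the least certain.

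Arrays of the same number were not taken as pairs, since their deviations from the line means correlated at -0.0062, 0.1153 and 0.1222, not all over 0.1. Arrays of unlike number correlated at -0.1343 to 0.034, so 2 of the 3 same-number values lay above all of these. With the replicate number as a block, 3 of the 10 S100 genes were called lower and 0 higher. The count of all genes called higher was 564, and that of all genes called lower was 464. S100A6 had an adjusted p of 0.0102 in that fit.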

Other observations

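Other EF-hand calcium-binding proteins moved in both directions. Of 19 measured, 2 were called higher in MCF10A-SNAI1 cells and 1 lower, with a median log2 fold change of -0.01. SPARC, a secreted matrix protein that binds calcium and collagen, measured 6.61, 6.62 and 6.50 in MCF10A-SNAI1 cells, against 9.39, 9.32 and 9.31 in MCF10A cells (log2 fold change -2.76 with a standard error of 0.064, limma adjusted p = 6.10e-07). It is often listed as a mesenchymal gene, and here it lay lower on all MCF10A-SNAI1 arrays. NUCB1, a calcium-binding protein of the Golgi, averaged 10.79 ± 0.024 in MCF10A-SNAI1 cells and 9.44 ± 0.11 in MCF10A cells (SD, n = 3 each; log2 fold change 1.35, limma adjusted p = 2.57e-05). CALU, or calumenin, of the secretory pathway, averaged 10.42 ± 0.13 in MCF10A-SNAI1 cells and 9.37 ± 0.045 in MCF10A cells (SD, n = 3 each; log2 fold change 1.05, limma adjusted p = 1.29e-04). RCN1, its relative, was higher by less than 2-fold (log2 fold change 0.93, limma adjusted p = 6.63e-05). EFHD2, an actin-binding EF-hand protein, was lower (log2 fold change -0.94, limma adjusted p = 1.60e-04). The calpain subunits CAPN1 and CAPNS1 went opposite ways, CAPN1 at -0.76 (limma adjusted p = 1.76e-04) and CAPNS1 at 0.61 on the log2 scale (limma adjusted p = 2.69e-04).

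The fused-type S100 genes, whose proteins join an S100 domain to long repeats in the outer skin, held no called gene among 6 measured, at log2 fold changes between -0.09 and 0.06.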
